A study of Homo sapiens with 6 samples.

Results

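The comparison of siALDOA with NC in PANC-1 was made over 3 of the 6 libraries of the series, 1 labelled NC and 2 labelled siALDOA, which keep their label numbers here as siALDOA 1 and siALDOA 2. PANC-1 is an established human line of pancreatic ductal adenocarcinoma (PDAC), and the other 3 libraries come from a PDAC line named 90. RNA was extracted with Trizol, selected for poly(A) tails and sequenced, and expression was given in FPKM (fragments per kilobase of gene and per mega (M) of counted fragments). The name siALDOA was taken to mean a small interfering RNA (siRNA) that targets ALDOA. The sources used here do not state what NC stands for, the siRNA sequences, the time of harvest, or whether siALDOA 1 and siALDOA 2 received the same siRNA. Each siALDOA library was set against the single NC library over 12098 of 41768 genes, those whose mean over these 3 libraries reached 1 FPKM, 10668 of them of type mRNA. ZNF529, with a mean of 1.0003 FPKM, was the last gene inside that limit and WDR66, with 0.99968, the first outside.

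Aldolase A splits fructose 1,6-bisphosphate into the triose phosphates that feed the later steps of glycolysis, and it also binds filamentous actin. Aldolase C, best known from brain, catalyses the same step. An siRNA guides the RNA-induced silencing complex to a matching transcript, which is cut, so the level of the targeted mRNA checks the label of a library.

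Depth, recovered from the step of the values of short RNAs, was 20.6 M fragments for NC, 21.9 M for siALDOA 1 and 18.8 M for siALDOA 2, so that 3 fragments on a gene of 1 kb correspond to 0.137 to 0.160 FPKM. The epithelial line was recognizable in each library, with KRT8 at 1839 FPKM in the NC library, 1969 with siALDOA 1 and 1523 with siALDOA 2, and KRT18 at 1517, 1578 and 1194. EPCAM, an epithelial adhesion molecule, was low at 14.2, 7.51 and 17.5 FPKM. Of 7 leukocyte markers only CD68, a lysosomal protein that many cultured lines also express, reached 1 FPKM, and CD3E was at 0 in each library. Among 8 fibroblast markers only COL1A1 did, at 9.96 FPKM in NC and siALDOA 2 and 13.7 in siALDOA 1, with COL1A2 at 0. No marker of endothelium or of acinar and islet cells reached 1 FPKM. The siALDOA 1 library stood apart, with 23356 genes above 0 against 19544 in NC and 19966 in siALDOA 2.

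ALDOA, which spans positions 30064164 to 30070457 of the plus strand of chromosome 16 (GRCh38, GENCODE v29), was lower in both siALDOA libraries. Sets of 3 FPKM values are given in the order NC, siALDOA 1 and siALDOA 2 throughout. NC held 906 FPKM, siALDOA 1 held 501 and siALDOA 2 held 462, which is 55.3% and 51.0% of NC. The siALDOA libraries differed from each other by 0.12 on the log2 scale, against changes from NC of -0.85 and -0.97, so the groups did not overlap and the gap inside the siALDOA group was the smaller one. Changes are differences of log2(FPKM + 1) throughout, which understates those of low genes. The limma estimate was -0.91 (SE 0.244), with an unadjusted p = 0.0197 and a Benjamini-Hochberg adjusted p = 1 over the 12098 genes. An exact permutation over the 3 libraries cannot go below p = 0.333 (two-sided), the value found. Among the 1663 mRNA genes that were lower in both libraries, ALDOA ranked 2nd by the smaller of both changes, behind CD99. Ranked by 1 library alone it was 14th among the lower mRNA genes of siALDOA 2 and 1561st among those of siALDOA 1. In bulk samples, fewer cells that express a gene and less RNA of it per cell cannot be told apart.

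ALDOC, the gene of aldolase C, stayed far below ALDOA in each library. It was at 3.15, 2.08 and 1.86 FPKM (log2 changes -0.43 and -0.54, limma SE 0.374, adjusted p = 1), so both siALDOA libraries lay below NC here too.

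Beyond ALDOA, the 2 siALDOA libraries lay farthest from NC in opposite directions. In siALDOA 1, 66 genes (0.546%) were at least 2-fold higher than NC and 1395 (11.5%) at least 2-fold lower, and in siALDOA 2, 476 (3.93%) were higher and 54 (0.446%) lower. Both libraries were at least 2-fold higher in 17 genes (0.141%) and at least 2-fold lower in 14 (0.116%). Against these 31 genes, 248 (2.05%) were 2-fold lower in siALDOA 1 and 2-fold higher in siALDOA 2, and 2 (0.0165%) the reverse. Some of the 31 passed the limit of 1 FPKM only through the group where they are high, as given below. The libraries were at least 2-fold apart from each other in 2480 genes (20.5%). By sign alone, 6218 genes (51.4%) were above NC and 5878 (48.6%) below it in siALDOA 1, and 6428 (53.1%) above and 5668 (46.9%) below in siALDOA 2, with 2641 (21.8%) above in both and 2093 (17.3%) below in both. That pair of counts was 2668 and 1005 after scaling by the median ratio, 4115 and 1494 as TPM, and 3575 and 3577 after a GC correction. A further 3785 (31.3%) were below in siALDOA 1 and above in siALDOA 2, and 3575 (29.6%) the reverse. With 2 residual degrees of freedom, limma called 0 genes at an adjusted p under 0.05 (0%), and 34 (0.281%) had an unadjusted p under 0.05. No label says that the libraries came from separate cultures, so these p-values measure only the spread between libraries. Both libraries are set against the same NC library, so a value particular to NC gives a shared change in each.

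**Figure D1:**
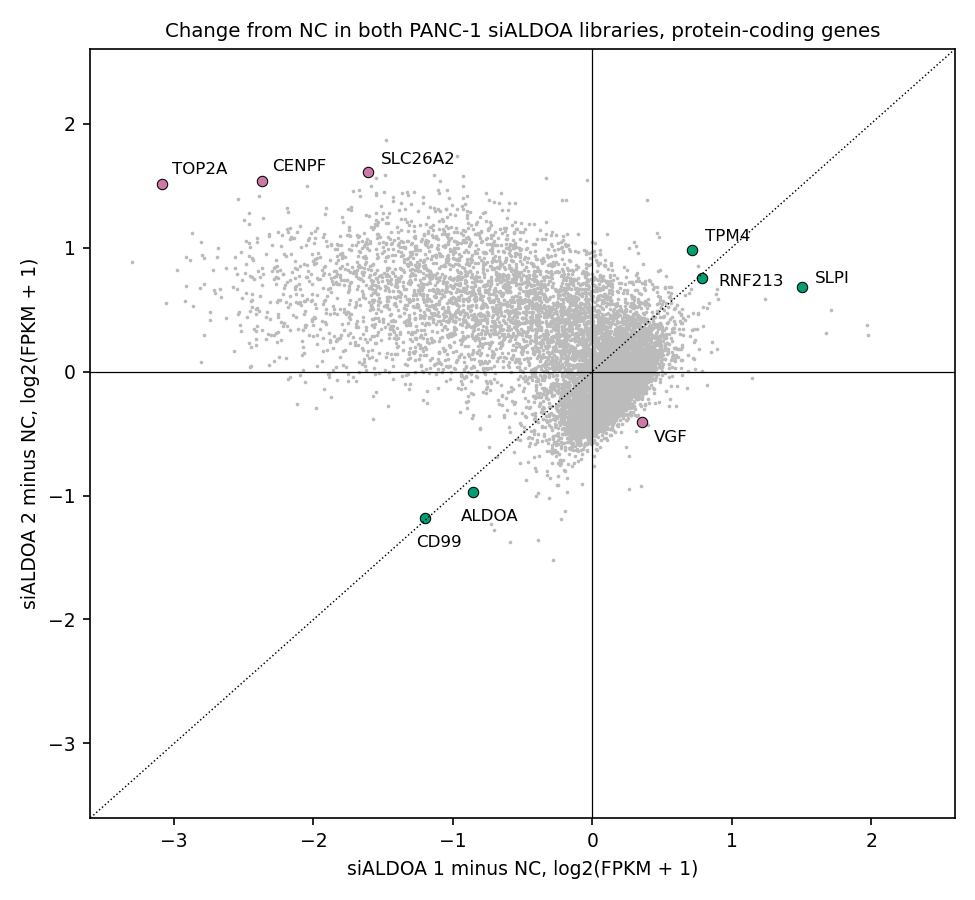
Change of 10668 mRNA genes from NC in siALDOA 1 (x axis) and siALDOA 2 (y axis), as differences of log2(FPKM + 1), with 1 grey point per gene, named genes in green where both libraries lie on the same side of NC and in pink where they lie on opposite sides, and the dotted line marking equal change. ALDOA and CD99 lie at the lower left near the dotted line, while most large changes, such as that of TOP2A, lie at the upper left.

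The genes with the largest opposite changes in siALDOA 1 and siALDOA 2 were poor in G and C when lower in siALDOA 1. SLC26A2, a sulfate transporter, was at 7.14, 1.67 and 23.8 FPKM. TOP2A, the DNA topoisomerase of dividing cells, was at 35.1, 3.25 and 102 FPKM, and CENPF, a kinetochore protein, at 8.002, 0.743 and 25.1. KIAA1430 (3.24, 0.449 and 11.6 FPKM), CLIP1 (7.76, 1.12 and 23.7), which tracks microtubule ends, and the centriolar gene CCP110 (3.25, 0.419 and 11.0) completed the 6 with the largest opposite changes of this kind. Their transcripts had a median GC content of 39.4% against 49.8% over all mRNA genes, and a median length of 5.83 kb against 3.29 kb. In the reverse direction the changes were smaller, and the 5 genes with a known transcript had a median GC content of 54.9% (49.1% to 70.6%). VGF, a secreted neuroendocrine protein, was at 17.8, 23.0 and 13.2 FPKM, and WFDC2, TFF3, HIST1H3H, TNK1 and LOC101929451 had log2 changes of 0.33 to 0.40 in siALDOA 1 and of -0.92 to -0.35 in siALDOA 2. The range in siALDOA 2 includes HIST1H3H, a histone gene with near-identical copies and an uncertain value.

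The contrast is visible in 90 bases from the middle of 3 coding sequences, shown for their base composition because these genes have some of the largest opposite changes (GENCODE v29 on GRCh38, each on its own strand, with G and C in capitals). SLC26A2 is taken from chr5:149980657-149980746 on the plus strand (41.1% GC), TOP2A from chr17:40402997-40404183 on the minus strand, across an intron that is left out (36.7% GC), and VGF from chr7:101163877-101163966 on the minus strand (78.9% GC). The first and second were lower than NC in siALDOA 1 and higher in siALDOA 2, and VGF, the richest in G and C of those 5 genes, was the reverse.
SLC26A2: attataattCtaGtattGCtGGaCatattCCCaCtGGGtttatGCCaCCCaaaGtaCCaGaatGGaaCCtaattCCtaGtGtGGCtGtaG
TOP2A: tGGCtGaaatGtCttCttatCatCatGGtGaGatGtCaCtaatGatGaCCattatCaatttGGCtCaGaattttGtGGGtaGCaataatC
VGF: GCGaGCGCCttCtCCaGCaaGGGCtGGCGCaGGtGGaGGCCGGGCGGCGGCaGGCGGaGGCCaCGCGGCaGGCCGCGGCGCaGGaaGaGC

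Over all mRNA genes with a known transcript, the lowest eighth of GC content (29.6% to 39.7%) had a median log2 change of -1.08 in siALDOA 1 and 0.58 in siALDOA 2. In that eighth 92.6% of genes were below NC in siALDOA 1 and above it in siALDOA 2. In the highest eighth (61.6% to 75.8%) the medians were 0.09 and -0.24. Transcript length went with the changes that both libraries share. In the shortest eighth (0.177 to 1.55 kb) 48.4% of genes were below NC in both libraries and 7.14% above it in both, and in the longest eighth (6.68 to 34.5 kb) 2.43% were below and 35.9% above. Within the middle of 3 bins of GC content (44.8% to 55.2%), the share above NC in both libraries was 11.3%, 29.4%, 45.6% and 64.2% over 4 bins of rising length, and the share below in both was 35.4%, 11.2%, 8.32% and 2.73%. In the lowest bin of GC content the share above in both hardly changed with length, at 7.74%, 9.01%, 9.02% and 8.88%. In the highest bin it was 6.71%, 8.56%, 13.7% and 35.9%. The share below in both fell from 20.7% to 2.16% in the lowest bin and from 49.6% to 5.02% in the highest. Whether GC content or length has a part in the change of a named gene was not tested gene by gene.

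**Figure D2:**
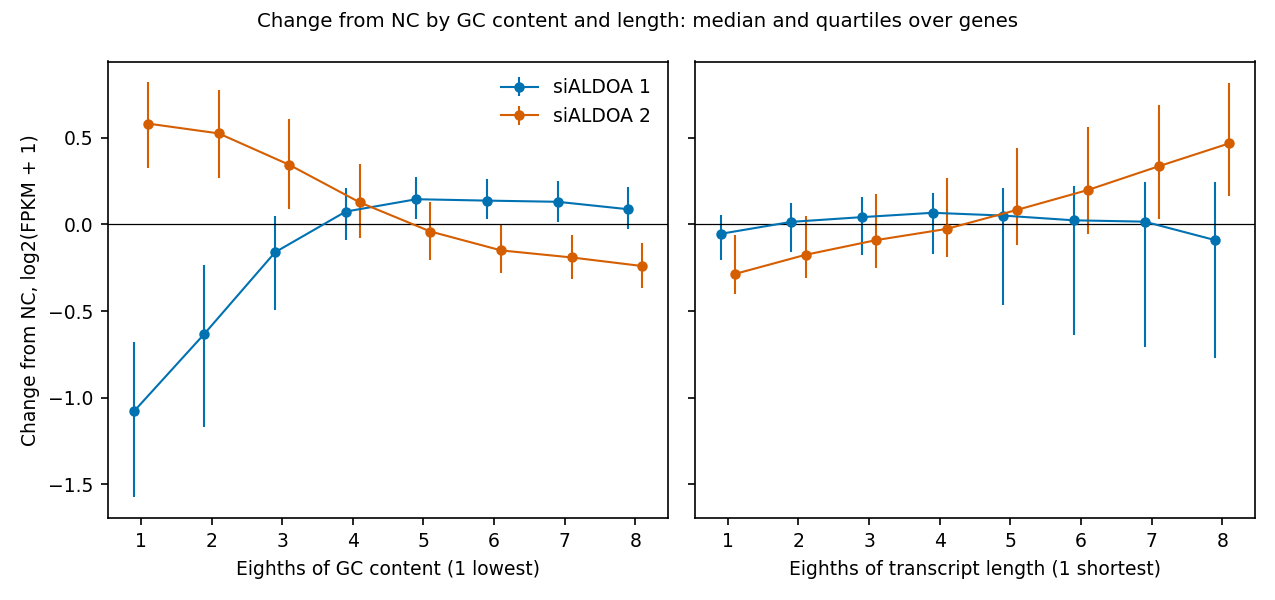
Median change from NC (points) with the quartiles over genes (bars) in eighths of mRNA genes by GC content (left) and transcript length (right), as differences of log2(FPKM + 1). Genes of low GC content lie below NC in siALDOA 1 and above it in siALDOA 2, and the median of siALDOA 2 goes from -0.29 in the shortest to 0.47 in the longest eighth.

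At 1.5-fold by log2(FPKM + 1), 8 mRNA genes were lower and 13 higher in both libraries, among 50 (0.413%) and 69 (0.57%) genes of all types. At that fold siALDOA 1 alone had 212 genes (1.75%) higher and 2292 (18.9%) lower and siALDOA 2 alone 1921 (15.9%) higher and 225 (1.86%) lower. The libraries were 1.5-fold from NC on opposite sides in 1179 genes lower in siALDOA 1 (9.75%) and 14 higher (0.116%), and 1.5-fold apart in 3545 (29.3%). The split of 13 higher and 8 lower was 20 and 4 after scaling by the median ratio, 48 and 7 as TPM, 19 and 6 after quantile normalization, and 15 and 24 after the GC correction. For 7 of the 8 lower and 11 of the 13 higher genes, the siALDOA libraries were closer to each other than either was to NC. Among all mRNA genes on the same side of NC in both libraries (2239 above and 1663 below), this held for 1311. The choice of genes with a large shared change favours such closeness, so it is no support for them. The 15 mRNA genes with the largest shared change in each direction, described next, had both libraries on their side of NC in 30 of 30 cases under each of the 3 scalings and after the corrections for GC content, for length and for both. They were picked from these same data, with smaller changes of at least 0.476 in size, so that count is no separate support for them. In size, some of their changes came near 0 under the corrections. In siALDOA 2 the length correction took SOGA1 from 0.59 to 0.02, HUWE1 from 0.62 to 0.04 and HECTD4 from 0.63 to 0.05, and that for GC content and length took NUDT8 from -0.48 to -0.02 and C19orf60 from -0.55 to -0.08. None passed limma (adjusted p = 1 for each), so what follows gives levels, not called changes.

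On the lower side the largest shared change was that of CD99, a cell surface glycoprotein, at 11.2, 4.32 and 4.39 FPKM (log2 change -1.19, SE 0.375). By log2(FPKM + 1) it was the only mRNA gene at least 2-fold lower in both libraries. With 0.1 added to the FPKM in place of 1, 2 mRNA genes were 2-fold lower and 6 higher in both. ASMTL, like CD99 a gene of the pseudoautosomal region shared by the X and Y chromosomes, was at 2.94, 1.21 and 0.977 FPKM. The last 2 values are 41.0% and 33.2% of NC. Of 13 genes of that region in the table, 6 were at 0 in all 3 libraries and 11 stayed under 1 FPKM in each, so the levels of this pair are uncertain. In the 90 line CD99 was at 5.66, 5.74 and 8.52 FPKM in the same order, and ASMTL at 1.63, 0.573 and 0.117.

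NPW, the precursor of neuropeptide W, was at 12.2, 6.98 and 4.62 FPKM. CHCHD10, a protein of the mitochondrial intermembrane space, was at 21.2, 12.7 and 8.18 FPKM, and CEND1, known for cell-cycle exit in neurons, at 13.8, 8.21 and 8.14. SUSD3, a sushi-domain membrane protein, was at 3.69, 1.81 and 2.07 FPKM, and MT1F, a metallothionein with near-identical relatives and thus an uncertain value, at 4.73, 2.80 and 1.21. In MT1F the libraries were farther apart than the smaller change from NC. CRLS1, which makes the mitochondrial lipid cardiolipin, was at 14.6, 9.53 and 8.95 FPKM, and C12orf75 at 56.8, 37.4 and 40.3. GTF2IRD2B, which has a near-identical copy, ZNF771, NUDT8, C19orf60 and LOC102724426 completed the 15, with smaller changes of 0.48 to 0.54 in size. LOC102724426, at 1.59, 0.778 and 0.777 FPKM, passed the limit of 1 FPKM only through NC. The 14 genes with a known transcript had a median length of 1.33 kb (0.690 to 3.96 kb).

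On the higher side PODXL, the sialomucin podocalyxin of apical membranes, was at 6.80, 12.5 and 12.5 FPKM (log2 change 0.79, SE 0.239, unadjusted p = 0.029). It lies on chromosome 7 from 131500262 to 131558217 on the minus strand. LIN52, a subunit of the DREAM and MuvB complexes that control cell-cycle genes, was at 3.23, 6.21 and 6.20 FPKM. TPM4, a tropomyosin that coats actin filaments, was at 45.9, 76.2 and 91.9 FPKM and the most abundant gene of this group. PGAM2, the muscle form of the glycolytic enzyme phosphoglycerate mutase, was at 1.02, 2.72 and 2.12 FPKM. TMEM88B was at 1.18, 2.70 and 2.93 FPKM, LOC102724258 at 5.56, 11.2 and 9.43, and ADAT1, a tRNA adenosine deaminase, at 3.59, 5.81 and 6.13. In these 7 genes NC was below both siALDOA libraries.

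A second set on the higher side consists of very long transcripts. RNF213, a ubiquitin ligase with ATPase domains and a transcript of 21.1 kb, was at 9.65, 17.4 and 17.0 FPKM. HECTD4 (15.8 kb; 2.14, 4.07 and 3.87 FPKM) and HUWE1 (14.8 kb; 16.7, 27.0 and 26.1 FPKM) encode ubiquitin ligases of the HECT type. SOGA1 (14.4 kb) was at 5.98, 12.04 and 9.48 FPKM, the receptor NOTCH2 (11.4 kb) at 12.7, 21.3 and 20.6, and LONP2 (8.20 kb), a protease of peroxisomes, at 5.16, 8.10 and 8.23. After the correction for GC content and length the log2 changes of RNF213 in siALDOA 1 and siALDOA 2 were 0.40 and 0.51, those of HECTD4 0.33 and 0.42, those of HUWE1 0.33 and 0.34, those of SOGA1 0.55 and 0.43 and those of NOTCH2 0.41 and 0.37. LONP2 stood at 0.58 and 0.06, against 0.56 and 0.58 as deposited. The correction for length alone left 0.02 to 0.15 in siALDOA 2 for the 6 genes. For ALDOA the corrected values were -0.91 and -0.67, and for PODXL 0.68 and 1.03.

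**Figure D3:**
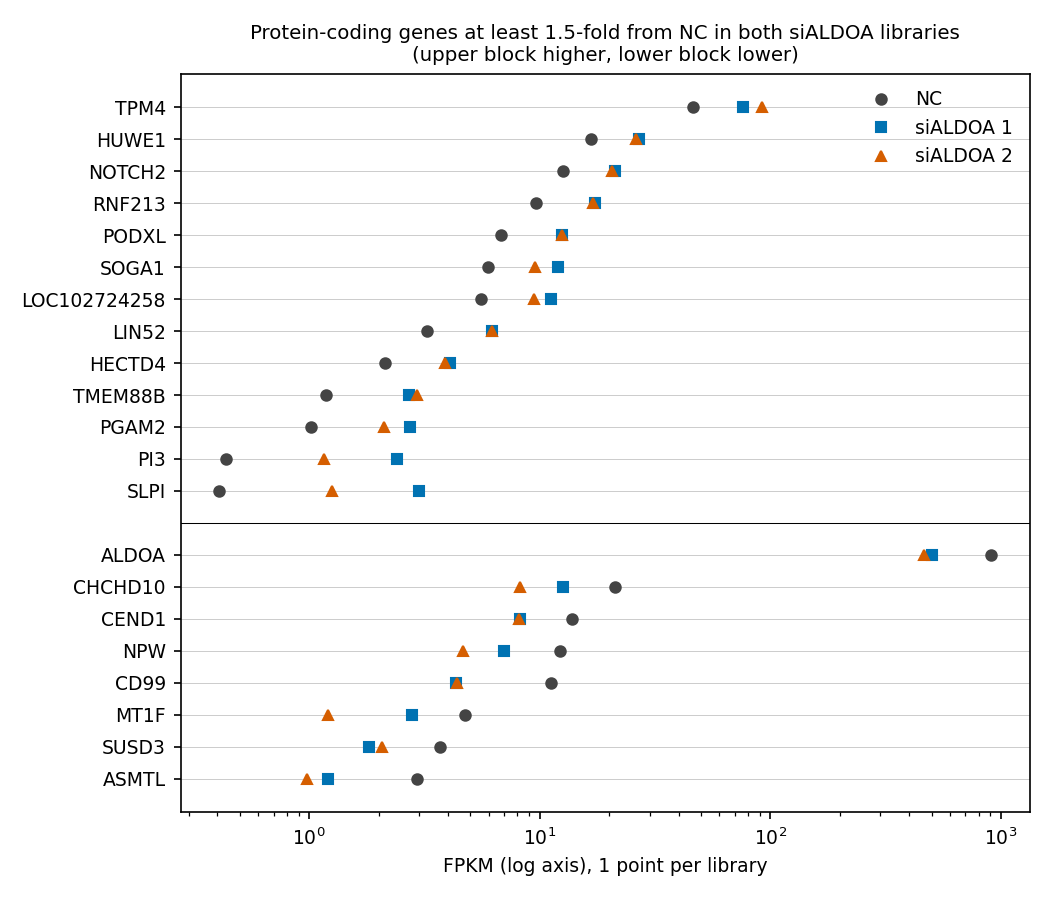
FPKM (log axis) of the 21 mRNA genes at least 1.5-fold from NC by log2(FPKM + 1) in both siALDOA libraries, with 1 point per library. In the upper block of 13 genes NC is the lowest of the 3 points, and in the lower block of 8 genes it is the highest, with ALDOA the most abundant gene by far.

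SLPI and its relative PI3, secreted inhibitors of neutrophil elastase encoded close together on chromosome 20 (SLPI from 45252239 to 45254564, PI3 from 45174876 to 45176544), were also among the 13. SLPI was at 0.407, 2.996 and 1.25 FPKM, and PI3 at 0.437, 2.40 and 1.16, so both passed the limit of 1 FPKM only through the siALDOA libraries. Both are abundant in the 90 line, SLPI at 522 and PI3 at 387 FPKM in its NC library. A set of 25 genes had a 90 line mean of 100 FPKM or more and stayed under 1 FPKM in siALDOA 2 of PANC-1. That rule does not use NC or siALDOA 1, but the low level in siALDOA 2 follows from it. Of these 25, 24 were higher in siALDOA 1 than in NC, against 51.4% of all tested genes. Their summed level was 9.58, 31.8 and 10.3 FPKM. The median gene stood at 0.133%, 0.545% and 0.145% of its mean in the 90 line. KRT5, a basal keratin, was the highest of them in siALDOA 1 (0.463, 3.68 and 0.811 FPKM). The part of such genes in the values of siALDOA 1 was not tested.

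**Figure D4:**
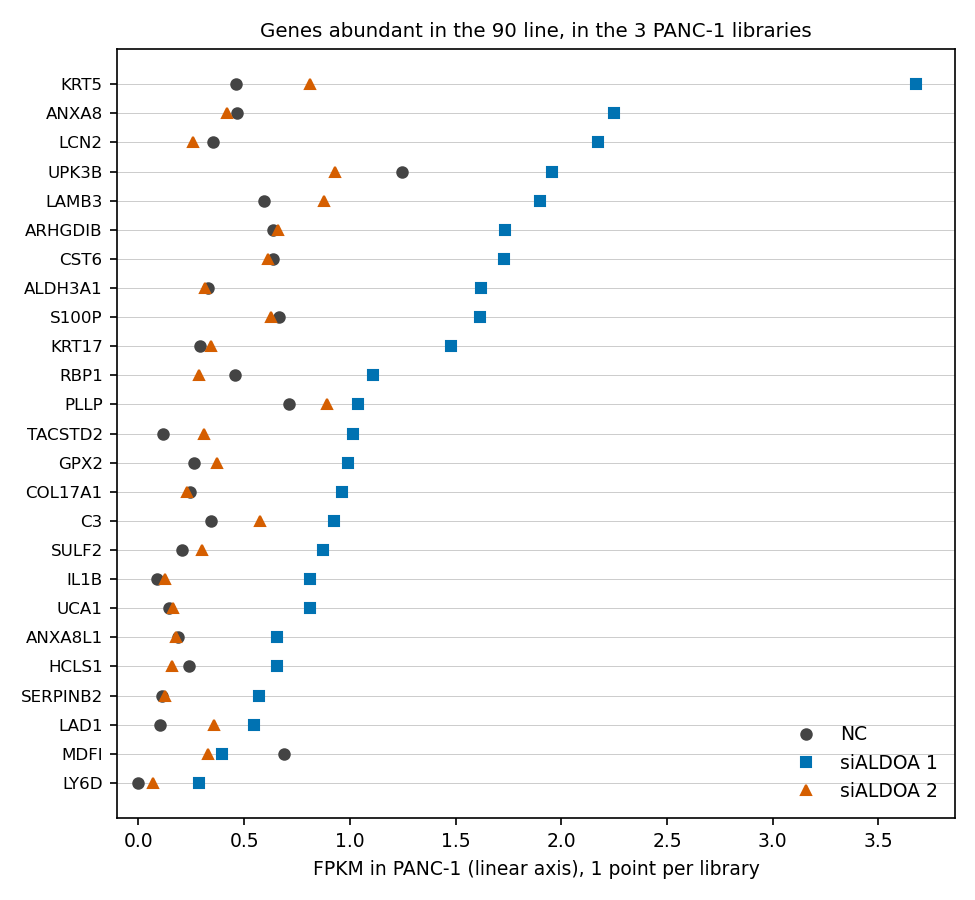
FPKM in PANC-1 (linear axis) of the 25 genes whose 90 line mean was 100 FPKM or more and which were under 1 FPKM in siALDOA 2 of PANC-1, with 1 point per library. For 24 genes the point of siALDOA 1 lies to the right of that of NC, and for MDFI to the left.

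Some low mRNA genes passed 2-fold in both libraries by FPKM alone, such as SLPI (7.37 and 3.08 times NC) and TMEM88B (2.28 and 2.48). By log2(FPKM + 1), the 31 genes that passed were not mRNA genes, apart from CD99. They comprised 10 microRNA genes or precursors on each side and 4 small nucleolar RNAs on the higher side, with 24 short RNAs of known length among the 31 genes. The highest number of fragments in any library was at most 10 for 20 of these 24, with a median of 5, so counting error is large. MIR1908, within FADS1 on chromosome 11 (61815161 to 61815240, minus strand), had 1, 10 and 11 fragments, while FADS1, a fatty acid desaturase, was at 66.2, 74.9 and 62.8 FPKM. MIR4479, within TRAF2 on chromosome 9 (136886733 to 136886803, plus strand), had 1, 6 and 7 fragments. MIR3658 had 0, 3 and 2 and MIR939 0, 3 and 3, within what a count of 0 allows (3 fragments). On the lower side MIR762, on chromosome 16 (30893903 to 30893985, plus strand) opposite BCL7C, had 8, 2 and 1 fragments, MIR4722, within PIEZO1 on the same chromosome, 5, 0 and 1, and MIR1206 4, 0 and 0. The remaining genes named by the rule were TRNA with 1, 15 and 6 fragments, RNA5SP424 with 7, 1 and 0, and the lncRNA LOC102723785 at 4.57 FPKM in NC and listed at 0 with siALDOA 1 and siALDOA 2. MIR1908, TRNA, MIR3658, MIR4479 and MIR939 were under 1 FPKM in NC, so they passed the limit of 1 FPKM only through the siALDOA libraries. MIR1206, RNA5SP424, MIR4722 and LOC102723785 were under 1 FPKM in both siALDOA libraries, so they passed only through NC. Reads of a poly(A)-selected library over a microRNA gene can come from the host transcript, so these values do not measure mature microRNAs.

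The mature sequences of those named microRNA genes with the most fragments on each side are given for their base composition and seeds (RefSeq, GRCh38.p14, 5′ to 3′, bases 2 to 8 in capitals). No pair of them shares a seed, and the hairpin genes are rich in G and C on both sides, at 80% for MIR1908, 70.4% for MIR4479, 85.5% for MIR762 and 71.7% for MIR4722.
hsa-miR-1908-5p, higher: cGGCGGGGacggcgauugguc
hsa-miR-4479, higher: cGCGCGGCcgugcucggagcag
hsa-miR-762, lower: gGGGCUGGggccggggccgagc
hsa-miR-4722-5p, lower: gGCAGGAGggcugugccagguug

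As deposited, the list counts over both libraries that follow stand beside 21.8% of all tested genes above NC in both and 17.3% below in both. The other enzymes of glycolysis did not follow ALDOA as deposited. Of 15 tested enzymes 14 were above NC in siALDOA 1 and 12 below it in siALDOA 2, with medians of 0.11 and -0.19. Over all tested genes 51.4% were above in siALDOA 1 and 46.9% below in siALDOA 2. The list had a median GC content of 53.1%. All mRNA genes in the eighth from 49.8% to 53.8% GC had medians of 0.15 and -0.04, and those in the next eighth 0.14 and -0.15. The part of GC content in the list medians was not tested. GAPDH, the next enzyme after the aldolase step, was at 2891, 2905 and 2210 FPKM, TPI1, which interconverts the triose phosphates, at 549, 594 and 444, and the pyruvate kinase PKM at 1120, 1309 and 956. LDHB, a lactate dehydrogenase subunit, went the other way at 343, 198 and 394 FPKM. Only HK2 (3.07, 3.25 and 3.23 FPKM), a hexokinase, and PFKM (24.4, 27.0 and 25.1), a phosphofructokinase, were above NC in both libraries, by log2 changes of 0.04 to 0.14, and no enzyme was below in both. The counts moved with the processing, as did the shares of all genes tested, given in brackets. As TPM they were 5 above and 0 below (34.0% and 12.35%), and after quantile normalization 6 and 0 (20.1% and 12.3%). After the GC correction they were 1 and 5 (29.55% and 29.57%), as after that for GC content and length (26.6% and 27.4%). The change of HK2 turned to -0.08 after the correction for length. Of 8 genes of glucose entry and phosphofructokinase control, PFKFB3, which makes the activator fructose 2,6-bisphosphate, was above NC in both (6.91, 9.04 and 7.42 FPKM) and none was below in both. In the pentose phosphate pathway 2 of 7 enzymes were below in both, PGLS at 35.9, 35.6 and 25.5 FPKM and TALDO1, the transaldolase, at 247, 242 and 192. None of these genes passed limma (adjusted p = 1 for each).

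In the citrate cycle 2 of 18 genes were above NC in both libraries and 6 below. The counts were 3 and 0 after scaling by the median ratio, against 22.05% and 8.31% of all genes tested. As TPM they were 5 and 2, against 34.0% and 12.35%. Citrate synthase (CS) was at 76.6, 97.7 and 83.1 FPKM, and SUCLG1, a subunit of succinyl-CoA ligase, at 82.9, 76.7 and 65.3. Nuclear subunits of oxidative phosphorylation were below NC in both libraries in 19 of 30 cases and above in 1, with medians of -0.09 and -0.36. COX6C was at 160, 112 and 118 FPKM, NDUFB3 at 76.9, 39.4 and 61.3 and UQCRB at 29.1, 9.12 and 22.1, subunits of complexes IV, I and III. Of the 13 mRNAs encoded in mitochondria, 2 were above and 3 below NC in both. ND4L, a subunit of complex I whose reading frame overlaps that of ND4, was at 2425, 3609 and 3290 FPKM, while ND3 of the same complex was at 1461, 1263 and 1208.

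Cytosolic ribosomal protein genes were below NC in both libraries in 31 of 33 cases and above in 0, with medians of -0.06 and -0.38, against 0.01 and 0.04 over all genes tested. RPL30 was at 1521, 1319 and 1154 FPKM, and RPS24 at 308, 192 and 263. The sign in siALDOA 1 turned with the scaling. The median ratio put the ribosomal median at 0.11 and that of oxidative phosphorylation at 0.09 in that library. Then 7 of 33 and 8 of 30 were below NC in both, against 8.31% of all genes tested. That scaling moved the median of all genes in siALDOA 1 from 0.01 to 0.16, and TPM moved that in siALDOA 2 from 0.04 to 0.18. Relative to the median of all genes, the ribosomal median lay between -0.16 and -0.05 in siALDOA 1 and between -0.43 and -0.02 in siALDOA 2 over the values as deposited and the 3 scalings. Both lists consist mostly of short transcripts, with median lengths of 1111 and 1354 bases against 3100 over all genes. After the correction for length 15 of 33 and 12 of 30 were below NC in both, against 15.7% of all genes tested. The GC correction left 28 and 19 (29.6% of all genes), and that for GC content and length 19 and 18 (27.4%). None of the members passed limma (adjusted p = 1 for each).

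Of 22 genes of the mitotic spindle, 12 were below NC in siALDOA 1 and above it in siALDOA 2, against 31.3% of all tested genes. Among the 12 were CDK1 (62.4, 12.8 and 67.3 FPKM), the motor KIF11 (8.77, 0.775 and 22.7) and ANLN of the cleavage furrow (43.8, 5.13 and 96.3). Their median changes were -1.88 and 0.93, and their median GC content was 41.5%. The 12 were split off by the side of NC, so the signs of these medians follow from the split. The same holds for part of their contrast in change with the rest of the list. The other 10, at a median GC content of 48.3%, had medians of 0.12 and 0.00 and no change over 0.39 in size. These include the kinases PLK1 (119, 134 and 98.8 FPKM) and AURKA (88.1, 97.2 and 95.2) and CDC20 (276, 293 and 228), the activator of the anaphase-promoting complex. TPX2, which activates AURKA, had the largest shared value above NC of the list (169, 196 and 208 FPKM). In DNA replication 4 of 22 genes were above in both and 1 below, and CDC6, which loads the replicative helicase, was among the 4 at 31.7, 37.2 and 40.9 FPKM.

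Of 15 hypoxia-induced genes 6 were below NC in siALDOA 1 and above it in siALDOA 2, against the same 31.3% of all tested genes, with a median GC content of 39.4% against 55.3% in the other 9. The histone demethylase KDM3A, at 6.09, 1.68 and 9.68 FPKM, is among the first. VEGFA, the vascular growth factor, was above NC in both libraries by the same amount (9.40, 11.7 and 11.7 FPKM), and BNIP3, a mitophagy receptor, below in both (66.5, 51.1 and 57.5). Of 17 interferon-induced genes 4 were above in both and 1 below, with MX2 at 16.8, 22.4 and 18.4 FPKM and the RNA sensor DHX58 at 0.889, 1.73 and 1.41. DHX58 passed the limit of 1 FPKM only through the siALDOA libraries. The RNA sensors DDX58 (2.84, 0.558 and 7.93 FPKM) and IFIH1 (1.51, 0.305 and 2.51) were on opposite sides of NC. IFI27 (1.73, 9.73 and 2.34 FPKM), another gene abundant in the 90 line, was highest in siALDOA 1.

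Among 16 targets of ATF4, the transcription factor of the integrated stress response, 6 were above NC in both libraries and 2 below. PSAT1, of serine synthesis, was at 29.6, 33.8 and 36.7 FPKM, and ATF3 at 2.82, 4.81 and 3.33, while CEBPB was below NC at 17.9, 14.9 and 11.1. In the unfolded protein response 5 of 18 were above and 1 below, with the chaperone HSPA5 at 177, 196 and 194 FPKM. Of 18 immediate early and ERK feedback genes 8 were above and 3 below, with EGR1 at 1.14, 2.07 and 1.29 FPKM and SPRED2, an inhibitor of the ERK pathway, at 13.8, 16.1 and 17.4 among the 8. Of 8 genes, metallothioneins and the zinc exporter SLC30A1, 4 were below NC in both and 1 above. MT2A, the most abundant, was at 2981, 2483 and 1905 FPKM, and the values of this family are uncertain because its members share sequence. The metallothionein median was -0.17 in each library as deposited and 0.01 in siALDOA 1 after the median ratio.

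Of 19 genes of the actin cytoskeleton and of SRF and YAP targets, 7 were above NC in both libraries and 2 below. VCL, the adhesion protein vinculin, was at 91.4, 118 and 116 FPKM, TPM1 at 106, 117 and 113, and the actin crosslinker FLNA at 197, 296 and 210, next to TPM4 above. The actins themselves were above NC in siALDOA 1 and below it in siALDOA 2, ACTB at 2657, 3205 and 2330 FPKM. CDH1, E-cadherin, was low and above NC in both libraries (1.18, 2.05 and 1.85 FPKM), and 3 of 15 epithelial genes were above and 1 below. Of 8 basal-like or squamous genes 4 were above in both and 0 below, with medians of 0.32 and 0.19, but 3 of the 4, KRT6A, KRT5 and LAMB3, were under 1 FPKM in NC and are abundant in the 90 line. The part of such genes was not tested. By log2(FPKM + 1), no list had more than 1 member at least 1.5-fold from NC in both libraries on either side. By FPKM alone, KRT6A was at 8.77 and 2.41 times NC and KRT5 at 7.94 and 1.75 times.

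**Figure D5:**
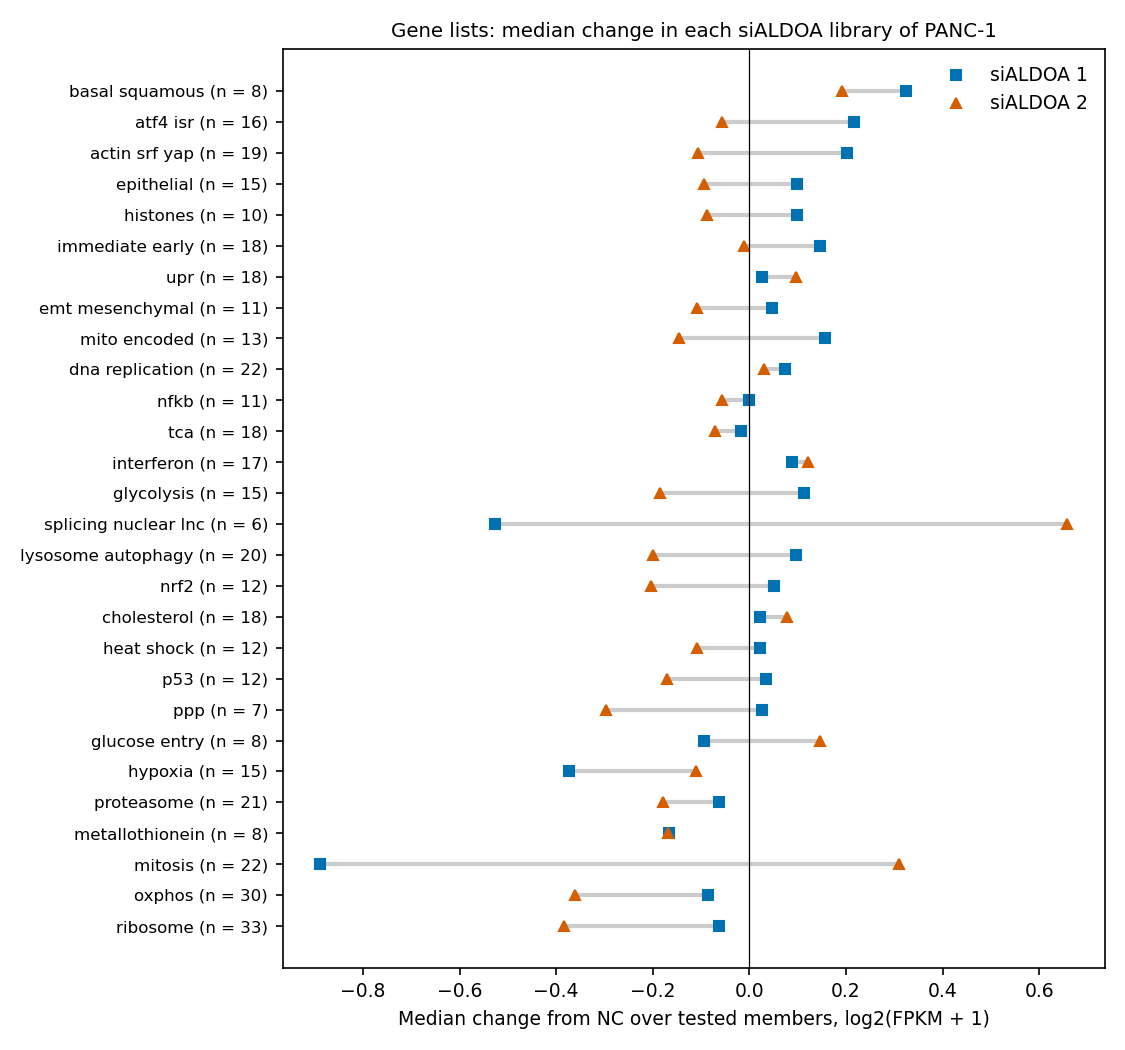
Median change from NC over the tested members of each gene list with at least 5 of them, in siALDOA 1 (squares) and siALDOA 2 (triangles), as differences of log2(FPKM + 1). For the mitosis list the libraries lie at -0.89 and 0.31, whereas the ribosome, oxidative phosphorylation, metallothionein and hypoxia lists lie below 0 in both as deposited; after the median ratio the first 3 of these lie above 0 in siALDOA 1, and as TPM the hypoxia list does in siALDOA 2.

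Set against the 90 line, the siALDOA effect was tested as a difference between both lines in the same limma fit. It called 0 of 12098 genes (0%), with 25 (0.207%) at an unadjusted p under 0.05. The effect on ALDOA was smaller in PANC-1 by 0.42 on the log2 scale (SE 0.346, adjusted p = 1), where the 90 line had 726, 262 and 318 FPKM. Some genes with a shared change in PANC-1 lay on the other side of NC in the 90 line. LIN52 was at 7.17, 4.74 and 4.41 FPKM there, a difference between both lines of 1.32 (adjusted p = 1).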

How the data were processed

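The authors deposited FPKM values per gene and library, made with HISAT2 and featureCounts on hg38, per the submitters' processing notes; the sources used here do not state versions, strand use or gene lengths. Of 41769 rows, 1 without a gene name was left out, and 28 symbols had been turned into dates. The members and gene lists were chosen with earlier results of these data known. Depth was recovered from short RNAs of known RefSeq length, where 96.1% to 96.5% of values up to 8 fragments were whole multiples of a step (tolerance 0.03); gene lengths of other genes are not in the table, so count tests were not used.

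The analysis used log2(FPKM + 1) of genes whose mean over the PANC-1 libraries reached 1 FPKM. Group means of all 6 libraries were fitted with limma 3.58.1 (R 4.3.3, intensity trend, 2 residual degrees of freedom, Benjamini-Hochberg adjustment), which assumes that the lone NC library varies as the siALDOA libraries do. GC content and length are those of the longest GENCODE v29 transcript of a symbol (98.7% of mRNA genes). Named genes are ALDOA and ALDOC, the 15 mRNA genes and 5 others per direction with the largest smaller change, the 6 per direction with the largest opposite changes, and up to 4 members per list; other members named with a list (such as GAPDH, LDHB, CDK1, KIF11, ANLN, PLK1, CDC20, KDM3A, DDX58, IFIH1, TPM1, FLNA and ACTB) were chosen after their values were seen. A gene that the rule takes in is not reported here. Alternatives were other pseudocounts, filters, scalings, a GC correction and left-out libraries; corrections for length, and for GC content and length, were chosen after seeing the data.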

Additional observations from a re-analysis of the deposited data

Results flagged for a closer look

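The 15 mRNA genes per direction with the largest shared change in PANC-1 were compared with the 90 line. For 9 of them, both siALDOA libraries of PANC-1 lay on one side of NC and both of the 90 line on the other. Genes outside that set also met this condition, such as VCL (58.87, 54.01 and 40.09 FPKM in the 90 line) and TPX2 (106.5, 100.6 and 68.21). How often it holds over all tested genes was not counted. The log2 change in PANC-1 minus that in the 90 line was 1.32 for LIN52, 1 for LOC102724258, 0.964 for NOTCH2, 0.961 for TMEM88B, 0.932 for HUWE1 and 0.924 for SOGA1. It was -1.46 for CD99, -1.38 for MT1F and -1.27 for SUSD3. limma's test of the difference did not pass for any of the 9 (adjusted p = 1 for each). TMEM88B was at 0.114 FPKM in NC and at 0 in both siALDOA libraries of the 90 line, and SUSD3 at 0.21, 0.881 and 0.785, so these 2 rest on levels under 1 FPKM there.

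For 3 gene lists the medians lay on opposite sides of 0 in both libraries of each line. The mean of the library medians in PANC-1 minus that in the 90 line was -0.32 for hypoxia-induced genes, -0.212 for metallothioneins and 0.196 for DNA replication. These differences were not tested. No list of the 3 kept both PANC-1 medians on its side of 0 under each scaling. After the median ratio the DNA replication median was -0.03 in siALDOA 2, against 0.03 as deposited, and the metallothionein median was 0.01 in siALDOA 1. As TPM the hypoxia median was 0.04 in siALDOA 2.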

How the results depend on the processing

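ALDOA was lower than NC in each siALDOA library used under the 14 alternatives, some of which leave 1 out, with a log2 change of -0.97 to -0.79, and passed limma in none. Its rank among the lower mRNA genes was 1 to 5 where both libraries were used, but 14 with siALDOA 2 alone and 1561 with siALDOA 1 alone. The 17 genes at least 2-fold higher and 14 at least 2-fold lower in both libraries became 69 and 50 at 1.5-fold, 59 and 27 with a pseudocount of 0.1, 0 and 0 with 5, 2 and 1 with a minimum of 5 FPKM, and 0 and 1 among mRNA genes. As TPM 37 were higher against 14 lower, and without a filter 40 were lower against 19 higher. Of 69 and 50 at 1.5-fold, TPM gave 139 and 46 and quantile normalization 91 and 42. With 1 siALDOA library left out, 66 to 476 genes were higher and 54 to 1395 lower. The 2480 genes at least 2-fold apart became 1138 with a pseudocount of 5, 1214 with a minimum of 5 FPKM, 1098 after the GC correction and 1092 after the correction for GC content and length. Without a filter limma called 47 genes, 0 of them mRNA genes and 46 with a mean under 1 FPKM. The cause of these shifts was not tested.

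Of 1608 values of named genes under alternatives, 14 changed sign. CD68 went from -0.023 to 0.031 (median ratio), 0.0658 (TPM), 0.0652 (quantile), 0.0405 (length) and 0.041 (GC content and length), and ran from -0.214 to 0.167 with 1 siALDOA library left out. HK2 became -0.0813 and MEG3 -0.0403 after the length correction, and -0.12 and -0.129 after that for GC content and length. Quantile normalization gave 0.00551 for ND6 and 0.0155 for PSMB4, and the GC correction -0.0131 for MAP1LC3B and -0.000626 for PDHB. No paired analysis was possible because NC has 1 library per line, and NC and siALDOA share fewer than 2 replicate numbers. With 1 NC library, every change rests on it.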
